A study of Mus musculus with 12 samples.

Results

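The genes described here are 9 regulators and signals of the renal cortical stroma, Foxd1, Meis1, Meis2, Aldh1a2, Rarb, Fgf7, Penk, Ntn1 and Smoc2, in kidneys of Bdkrb2 null mouse embryos and of their wild-type (WT) counterparts at embryonic day 14.5. They were chosen by name, as genes known for their place in kidney stroma, and every probe whose accession maps to one of the 9 symbols was taken. That gave 15 probes among the 41174 on the array, for 9 of 17305 named genes. Of these probes, 14 were bright enough to be tested, among 22979 tested probes in all.

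Bdkrb2 encodes the bradykinin B2 receptor. Null and WT embryos came from heterozygous parents on a C57BL/6 background, and in both genotypes the mothers ate a high salt diet with 5% sodium, so nothing here compares salt with normal food. The labels do not say how many embryos a sample held, nor from which litters they came. Each of 12 Agilent arrays carried null RNA in one colour and WT RNA in the other, which made 6 replicates of 2 arrays each. In 3 replicates the null RNA carried Cy5 (null/WT) and in 3 the WT RNA carried it (WT/null), and each of the 3 slides held the arrays of 1 replicate number.

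The stroma is the loose connective tissue around the ureteric bud and the nephron progenitors. Its cells arise largely from FOXD1-positive precursors and later give rise to pericytes, mesangial cells, vascular smooth muscle and interstitial fibroblasts. In mice, stromal cells make retinoic acid, which acts through retinoic acid receptors and keeps the receptor Ret expressed at the ureteric tips. Stromal cells also send growth factors and guidance cues to the epithelium and the vessels.

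Retinoic acid receptors bind direct repeats of a short half-site, and the Rarb promoter is the textbook example of such an element. It is shown because the Rarb transcript is a classical readout of retinoic acid. The RefSeq promoter table (GRCm38.p6) holds windows from 250 bases before to 50 bases after the start for 6 of the 9 genes: Foxd1, Aldh1a2, Rarb, Meis1, Meis2 and Fgf7. The Rarb window lies at chr14:16575427-16575726 on the minus strand and is printed 5′ to 3′, with a direct repeat of 2 half-sites spaced by 5 bases in capitals.
Rarb: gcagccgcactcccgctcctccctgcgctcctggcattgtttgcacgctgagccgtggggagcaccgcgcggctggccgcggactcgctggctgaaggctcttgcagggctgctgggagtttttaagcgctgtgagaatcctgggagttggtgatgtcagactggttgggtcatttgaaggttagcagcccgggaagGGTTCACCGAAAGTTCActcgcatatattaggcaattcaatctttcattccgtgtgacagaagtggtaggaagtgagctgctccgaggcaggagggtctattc

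The half-sites searched were AGGTCA or AGTTCA or GGGTCA or GGTTCA, on both strands, and the repeat was any pair of them in the same orientation with 5 bases between. In the Rarb window the repeat spans positions -53 to -37 from the start, and a further half-site lies at -83. The Foxd1 window holds 2 single half-sites and the Fgf7 window 1. The windows of Aldh1a2, Meis1 and Meis2 hold none of these letters. Across all 32851 promoter windows, 43.7% hold at least 1 half-site and 32 (0.0974%) hold the spaced repeat. A match is a description of the letters in a window and not a measured binding site.

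Several properties of the arrays bear on the stromal genes. The share of spots well above background ran from 41.2% to 59.0% for Cy3 and from 51.1% to 60.0% for Cy5. WT/null replicate 3 stood apart: its first array had log2 ratios with an SD of 0.38, and its arrays correlated at 0.711, against 0.824 to 0.923 in the other 5 replicates. The probe of Bdkrb2 itself was well above background on 0 of 12 null and 1 of 12 WT channels, so it checks nothing about the labels. Xist was well above background on 12 of 12 null channels and on 4 of 12 WT channels, all on slide 1, and 3 Y-linked genes on 0 null channels and on 8 WT channels, all on slides 2 and 3. Sex transcripts therefore differed between genotypes on slides 2 and 3 and not on slide 1, and their part in the values of the stromal genes was not tested. Kidney markers were present as labelled, with 8 of 8 nephron progenitor genes, 7 of 8 ureteric bud genes (all but Ret) and 7 of 7 stromal markers bright enough to be tested. Foxd1, Meis1, Meis2, Smoc2 and Penk are in that stromal count and are also members of the set described here. For them the count repeats the brightness filter and is no separate check of the tissue.

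For none of the 14 tested probes did null kidneys differ from WT kidneys past the threshold, a Benjamini-Hochberg adjusted p under 0.05 in limma over all tested probes. Over all tested probes 9 passed (0.0392%). Counted by gene, at the brightest probe, 0 of the 9 genes passed and 3 of 12647 genes did (0.0237%). The 14 probes split evenly, 7 higher and 7 lower in null, and their median null over WT was 0.01 on the log2 scale, against -0.01 for all tested probes. The smallest limma adjusted p among them was 0.523. Since the members were chosen with other results of these arrays known, this count is a description of them and no separate test.

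The precision was that of a typical probe on these arrays. The median standard error of the 14 probes was 0.0501 on the log2 scale, close to the 0.0506 of all tested probes. In this fit, the 95% intervals of null over WT ran between 0.855-fold and 1.26-fold over all 14 probes. They hold for this background correction and normalization, and Fgf7 had larger values under others. Among the other ways of processing, Penk was clearly larger only with median centring, which also raised the median of all tested probes. The intervals also treat the 6 replicates as independent, although replicates of one number share a slide. With the replicate numbers treated as pairs, the standard error was larger for most of the 14 probes. It rose from 0.044 to 0.056 for Aldh1a2 and from 0.039 to 0.051 for Rarb. It was smaller only for Foxd1 A_52_P128134 and Ntn1 A_52_P401473. Of the 14 unpaired intervals, 11 included no difference. The other 3 belonged to both Penk probes and to Fgf7, and these were also the probes with an unadjusted p under 0.05 (21.4% of 14, against 7.01% of all tested probes). All 3 were higher in null, as were 4.41% of all tested probes at that unadjusted level. In whole kidneys, a different number of cells of a type and a different amount of RNA per cell cannot be told apart.

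Signal levels of null and WT kidneys overlapped for every one of the 14 probes, and 0.1% of all tested probes had levels that did not overlap. This comparison pools the replicates and leaves aside that null and WT shared each array. An overlap therefore does not show that null and WT were alike within a replicate. A level here is the log2 intensity of 1 dye channel after normalization, and levels of different probes are not comparable with each other. No spot of these probes was saturated.

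**Figure D1:**
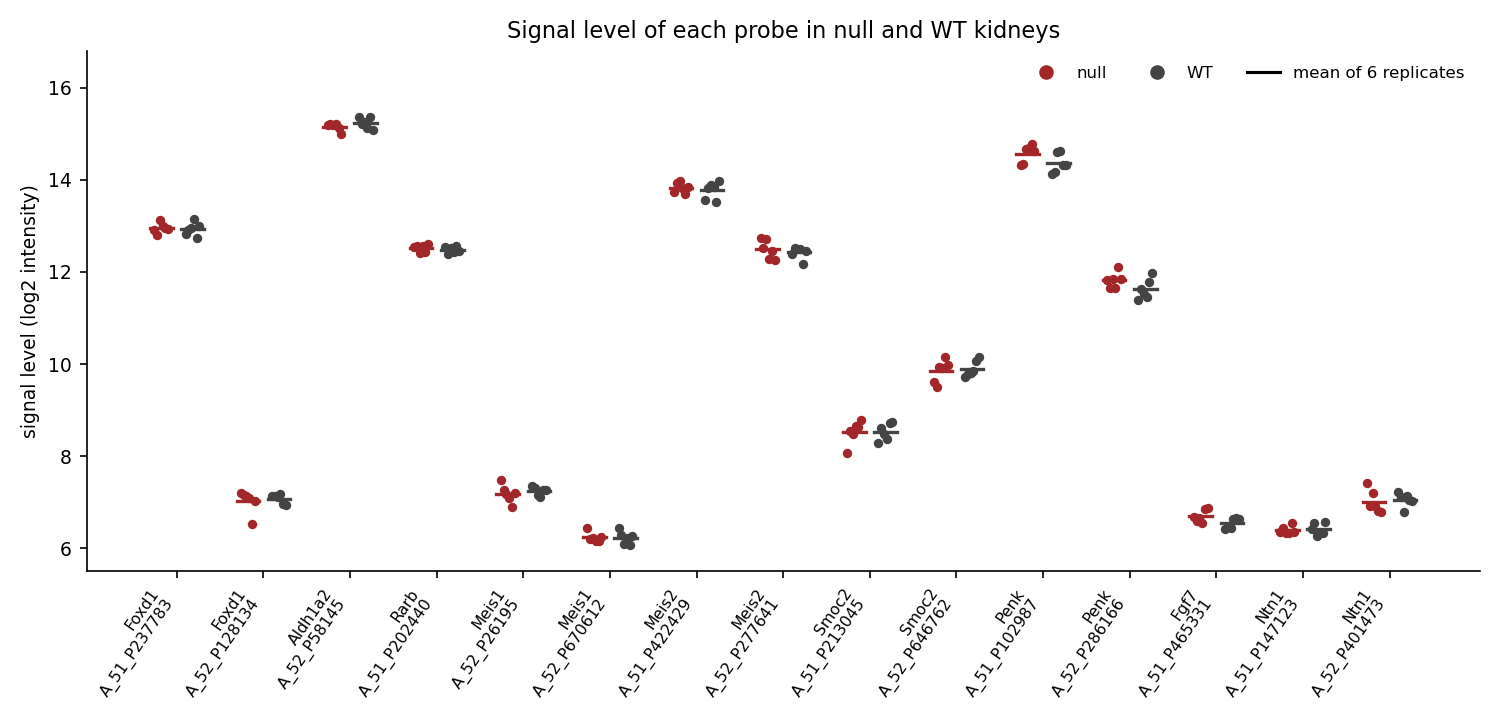
Signal level of each of the 15 probes in null (red) and WT (grey) kidneys, in log2 intensity on the vertical axis. Each point is 1 replicate (the mean of its 2 arrays) and each bar the mean of 6 replicates. The points of null and WT kidneys, pooled over replicates, overlap for every probe, and levels are to be compared only within a probe.

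Among the transcription factors, Foxd1 encodes the forkhead factor that marks the stromal precursors and is needed for normal nephron differentiation in mice. Its brighter probe (A_51_P237783, chromosome 13) had a level of 12.80 at the lowest, 12.94 at the median and 13.13 at the highest in null kidneys, against 12.74, 12.94 and 13.16 in WT kidneys. The medians were thus the same to 2 decimals and the ranges nearly coincided. Null over WT was 0.02 ± 0.04 (SE, n = 6 replicates) on the log2 scale, with a 95% interval of -0.07 to 0.11 and a limma adjusted p of 0.890. The 3 null/WT replicates lay at -0.11, -0.17 and -0.07 and the 3 WT/null replicates at 0.09, 0.16 and 0.20. All replicates of one dye orientation therefore lay below 0 and all of the other above it. Averaged over both orientations, the 3 slides gave -0.01, -0.00 and 0.06.

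The dimmer Foxd1 probe (A_52_P128134) gave -0.06 ± 0.07, the opposite sign, with a limma adjusted p of 0.790. It was well above background on 11 of 12 null channels and 12 of 12 WT channels. Of its 6 replicates, 5 lay between -0.10 and 0.10, and WT/null replicate 3 lay at -0.43. In that replicate the first array gave -0.76 and its duplicate -0.10. Without that first array the probe's fitted value was -0.00.

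Meis1 and Meis2 encode TALE homeodomain factors that bind DNA together with PBX and HOX proteins and are widely used as markers of kidney stroma. Meis1 (A_52_P26195, chromosome 11) had a level between 6.91 and 7.49, with a median of 7.18, in null kidneys and between 7.12 and 7.35, with a median of 7.26, in WT kidneys. WT/null replicate 3 was the lowest null sample, and the other 5 lay within or above the WT range apart from 1 at 7.08. Null over WT was -0.06 ± 0.06 (95% interval -0.20 to 0.09, limma adjusted p = 0.775). The replicates gave -0.04, -0.03 and -0.07 in null/WT and 0.14, 0.01 and -0.36 in WT/null. The last of these was again uneven between its arrays, at -0.57 and -0.14, and without its first array the fitted value was -0.02. A second Meis1 probe (A_52_P670612) was well above background on 1 of 12 channels of each genotype and was not tested.

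Meis2 (chromosome 2) was read by 2 bright probes that gave nearly the same null over WT. A_51_P422429 had a level of 13.69, 13.83 and 13.97 at the lowest, median and highest in null kidneys, against 13.53, 13.83 and 13.97 in WT kidneys. The spans overlapped almost completely. Null over WT was 0.06 ± 0.04 (95% interval -0.04 to 0.16, limma adjusted p = 0.733). A_52_P277641 gave 0.07 ± 0.04 (95% interval -0.03 to 0.17, limma adjusted p = 0.728). In A_52_P277641 the orientations stood further apart than the genotypes, with -0.02, -0.21 and -0.20 in null/WT replicates and 0.34, 0.21 and 0.29 in WT/null replicates. Its dye term passed the threshold in limma (adjusted p = 0.0204), which 13.5% of all tested probes did. It was the only one of the 14 probes whose dye term passed.

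**Figure D2:**
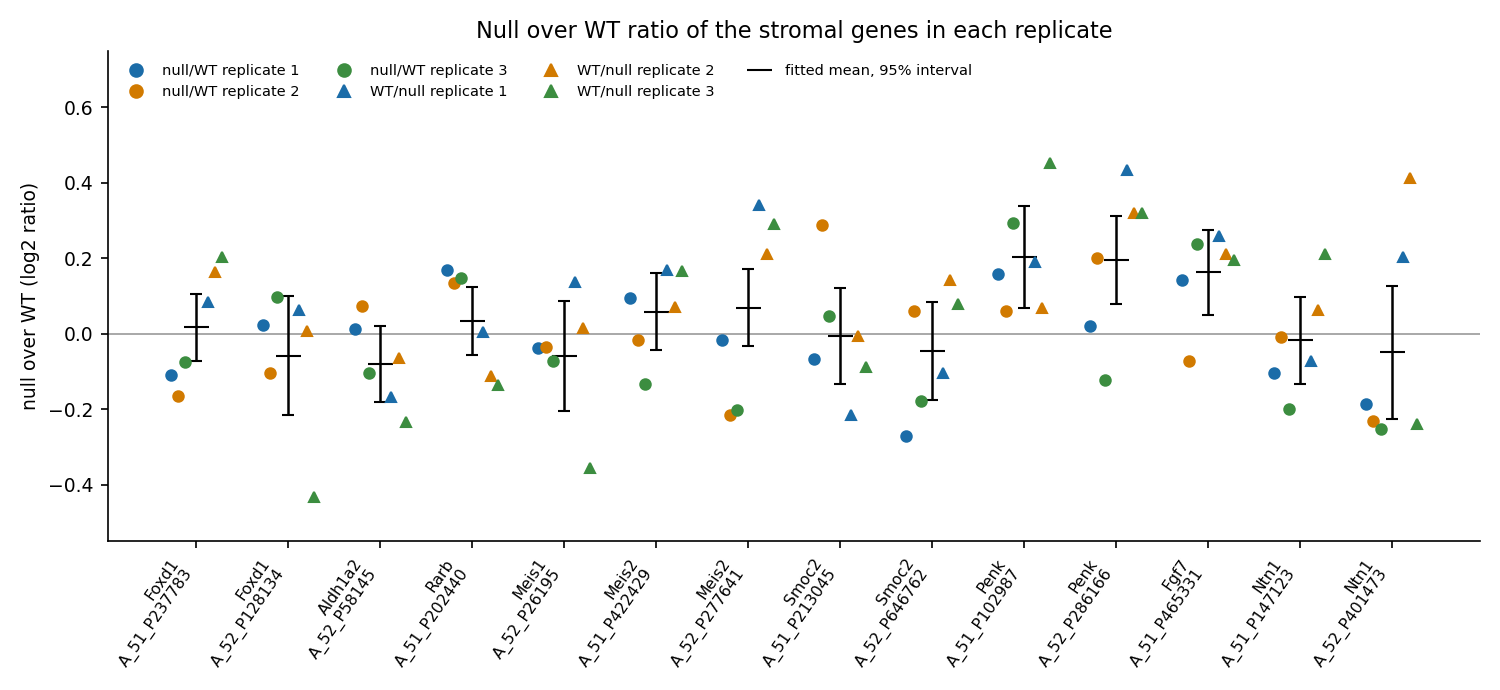
Null over WT (log2 ratio, vertical axis) for the 14 tested probes, with 1 point per replicate, circles for null/WT and triangles for WT/null, coloured by replicate number. Black bars show the fitted mean and its 95% interval, which includes 0 for all probes but both of Penk and that of Fgf7. For Foxd1 (A_51_P237783) and Meis2 (A_52_P277641) all circles lie below 0 and all triangles above it.

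Both genes of the retinoic acid pathway in the set were each read by a bright probe. Aldh1a2 encodes the retinaldehyde dehydrogenase that makes retinoic acid in the cortical stroma. Its probe (A_52_P58145, chromosome 9) had a level of 14.99 at the lowest, 15.19 at the median and 15.22 at the highest in null kidneys, against 15.09, 15.23 and 15.35 in WT kidneys. The null range lay slightly below the WT range, and the ranges overlapped in part. The fitted null over WT was -0.08 ± 0.04 (95% interval -0.18 to 0.02, limma adjusted p = 0.711), and 4 of 6 replicates were lower in null. The slides gave -0.08, 0.01 and -0.17.

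Rarb encodes retinoic acid receptor beta, itself a direct target of the pathway through the repeat shown above. Its probe (A_51_P202440, chromosome 14) is printed 10 times on the array. In null kidneys the level was 12.40 at the lowest, 12.55 at the median and 12.61 at the highest, and in WT kidneys 12.39, 12.49 and 12.57. The ranges shared all but their ends. For Rarb, null over WT was 0.03 ± 0.04 (95% interval -0.06 to 0.12, limma adjusted p = 0.782). The null/WT replicates, at 0.17, 0.13 and 0.15, all lay above the WT/null replicates, at 0.01, -0.11 and -0.14. In fold, the interval of this retinoic acid target ran from 0.962 to 1.09.

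The largest values in the set belonged to secreted signals. Penk encodes proenkephalin, the precursor of enkephalin opioid peptides. It is known as a marker of part of the embryonic kidney stroma and is also made by chromaffin cells of the adrenal medulla. Its brighter probe (A_51_P102987, chromosome 4) had a level of 14.31 at the lowest, 14.65 at the median and 14.78 at the highest in null kidneys, against 14.12, 14.33 and 14.63 in WT kidneys. The null median was above the highest WT sample, but both spans shared the levels between 14.31 and 14.63. The replicate ratios of null over WT were 0.16, 0.06 and 0.29 in the null/WT replicates and 0.19, 0.07 and 0.45 in the WT/null replicates. All 6 were above 0, and replicates that shared a slide had similar values. Among all tested probes, 1.5% were higher in null in 6 of 6 replicates, and 2.92% had the same sign in 6 of 6.

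The fitted Penk difference by this probe was 0.20 ± 0.06 on the log2 scale, or 1.15-fold (95% interval 1.05 to 1.26). Its unadjusted limma p was 0.0082, which ranked 314 among the 22979 probes, and its adjusted p was 0.588. The second Penk probe (A_52_P286166) gave 0.20 ± 0.05, or 1.14-fold (95% interval 1.06 to 1.24), with a limma adjusted p of 0.523. Its levels were 11.65, 11.83 and 12.10 at the lowest, median and highest in null kidneys, against 11.38, 11.58 and 11.97 in WT kidneys. All 6 null samples thus lay above the WT median, and the spans overlapped.

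The 2 Penk probes matched in their mean and not in their replicates. The second probe gave 0.02, 0.20 and -0.12 in null/WT replicates and 0.43, 0.32 and 0.32 in WT/null replicates. By slide, A_51_P102987 gave 0.17, 0.06 and 0.37, and A_52_P286166 gave 0.23, 0.26 and 0.10. Slide 3 thus held the highest value of one probe and the lowest of the other. Without slide 3 the values were 0.12 and 0.24, and the limma adjusted p of the second probe was then 0.189, the lowest of any of the 14 probes in any alternative. With the replicate numbers treated as pairs, none of the 14 probes passed (0.0174% of all tested probes did), and the smallest limma adjusted p was 0.904. In that fit the same 3 probes of Penk and Fgf7 had an unadjusted p under 0.05, against 3.3% of all tested probes.

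Fgf7 encodes a fibroblast growth factor made by stromal cells that acts on FGFR2 in the ureteric epithelium and sets ureteric growth in mice. Its probe (A_51_P465331, chromosome 2) was dim, well above background on 11 of 12 null channels and 10 of 12 WT channels. Its level was 6.55 at the lowest, 6.66 at the median and 6.88 at the highest in null kidneys, against 6.41, 6.54 and 6.66 in WT kidneys. The null median exceeded every WT sample by a margin of less than 0.01, and 3 null samples lay within the WT range. Its null over WT ratio was 0.14, -0.07 and 0.24 in null/WT replicates and 0.26, 0.21 and 0.19 in WT/null replicates. It was above 0 in 5 of 6. The fitted value was 0.16 ± 0.05, or 1.12-fold (95% interval 1.04 to 1.21, limma adjusted p = 0.594).

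The size of the Fgf7 value differed between ways of processing. By construction, the offset of 50 added to every spot pulls ratios of dim spots towards 0, and with an offset of 16 the value was 0.26 ± 0.07 (limma adjusted p = 0.744). Without background correction it was 0.19 ± 0.05 (limma adjusted p = 0.681). With the scanner software's own ratios, which differ in background correction and normalization together, it was 0.59 ± 0.17 (limma adjusted p = 0.544). In none of them did it pass, and which step makes the scanner value larger was not tested.

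Ntn1 encodes netrin-1, a secreted guidance cue that stromal cells make and that directs vessel patterning around the developing nephrons in mice. It lies on chromosome 11 and was read by 2 dim probes. A_52_P401473, well above background on 11 of 12 null and 12 of 12 WT channels, had a level of 6.78, 6.92 and 7.42 at the lowest, median and highest in null kidneys, against 6.78, 7.08 and 7.21 in WT kidneys. The null samples spread more widely and covered the whole WT span. Null over WT was -0.05 ± 0.08 (95% interval -0.23 to 0.13, limma adjusted p = 0.837). The replicates ran from -0.25 to 0.41, the widest scatter of the 14 probes, and the 2 arrays of WT/null replicate 3 gave -0.57 and 0.09. Without the first of these arrays the sign turned, to 0.01. A_51_P147123 was well above background on 6 of 12 null and 7 of 12 WT channels and gave -0.02 ± 0.05 (limma adjusted p = 0.912).

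Smoc2 encodes a secreted calcium-binding matrix protein of the SPARC family that is used as a stromal marker. On chromosome 17, its 2 probes gave -0.05 ± 0.06 (A_52_P646762, limma adjusted p = 0.796) and -0.01 ± 0.06 (A_51_P213045, limma adjusted p = 0.976). The level of A_52_P646762 was 9.50 at the lowest, 9.93 at the median and 10.15 at the highest in null kidneys, against 9.71, 9.82 and 10.15 in WT kidneys. The spans ended at nearly the same level, and the null span began lower. By slide, the 2 probes gave -0.19, 0.10 and -0.05 and -0.14, 0.14 and -0.02. The sign thus changed between slides in the same way for both probes.

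The genes around these 9 in their pathways were described by their brightest tested probe, in lists chosen by known function and with earlier results of these arrays in view. In no list did a gene pass the threshold in either direction. For comparison, 48.1% of all 12647 tested genes were higher in null, their median was -0.00 on the log2 scale, and 7.78% had an unadjusted p under 0.05. Of the 87 tested genes in these lists, 20 had an unadjusted p under 0.05 in the unpaired fit and 9 with the replicate numbers as pairs.

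Other stromal genes had the highest median of the 8 lists. Of 16 tested genes of general renal stroma (19 listed), 13 were higher in null, with a median of 0.13, and 9 had an unadjusted p under 0.05. Lum, which encodes the matrix proteoglycan lumican, stood at 0.49 ± 0.08 and Dcn, which encodes decorin, at 0.35 ± 0.06, both with a limma adjusted p of 0.190. Col3a1, a fibrillar collagen gene, stood at 0.22 ± 0.05 (limma adjusted p = 0.344). Each of these 3 was higher in null in 6 of 6 replicates. Tcf21, a stromal transcription factor gene, stood at -0.00 ± 0.05. Among 10 medullary stroma genes, 6 were higher and 4 lower in null, with a median of 0.01. In that list, Tagln and Acta2, which encode contractile proteins of smooth muscle, stood at 0.32 ± 0.13 and 0.22 ± 0.09, and Alx1, a homeobox gene, at 0.08 ± 0.04.

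Genes of retinoic acid synthesis, binding, reception and breakdown were split, 8 higher and 11 lower in null among 19 tested, with a median of -0.02. Aldh1a1, which encodes another retinaldehyde dehydrogenase, stood at -0.26 ± 0.09 (limma adjusted p = 0.646), with slides at 0.05, -0.37 and -0.47. Cyp26b1, which encodes a retinoic acid hydroxylase, stood at 0.14 ± 0.06 and Rdh11, which encodes a retinol dehydrogenase, at -0.10 ± 0.04. Among 13 tested TALE and HOX partners of MEIS1 and MEIS2, 5 were higher and 8 lower, with a median of -0.01. Meis3, a relative of both, stood at -0.16 ± 0.06, Hoxc10 at -0.07 ± 0.04 and Pbx2 at -0.08 ± 0.06.

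FGF ligands, receptors and response genes had 5 of 13 tested members higher in null, with a median of -0.02. Fgf20, a ligand that maintains nephron progenitors, stood at -0.15 ± 0.06. Fgf10, the other known stromal ligand of the FGF7 subfamily, stood at -0.13 ± 0.06, and Spry2, a feedback inhibitor induced by FGF signals, at 0.12 ± 0.05. Fgfr2, the receptor gene, stood at -0.01 ± 0.06. Of 7 tested netrin receptors and netrins, 4 were higher in null, with a median of 0.05. Unc5c, a netrin receptor gene, stood at 0.18 ± 0.06, Ntng1 at 0.09 ± 0.05 and Dscam, another netrin receptor gene, at -0.09 ± 0.05. The receptor genes Dcc and Unc5d and the netrin genes Ntn4 and Ntng2 were well above background on no channel.

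The opioid list had 6 tested genes, 3 higher and 3 lower, with a median of 0.01. Cpe, which encodes carboxypeptidase E, a processing enzyme of proenkephalin and other prohormones, stood at 0.09 ± 0.05. Pomc stood at 0.07 ± 0.04 and Ogfr at -0.15 ± 0.11. The classical opioid receptor genes Oprd1, Oprk1 and Oprm1 and the convertase gene Pcsk1 were well above background on no channel. In the SPARC family, 4 of 5 tested genes were higher in null, with a median of 0.10, and Sparcl1 stood at 0.26 ± 0.07 (limma adjusted p = 0.564). Fstl1 stood at 0.14 ± 0.05 and Sparc at 0.10 ± 0.05.

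**Figure D3:**
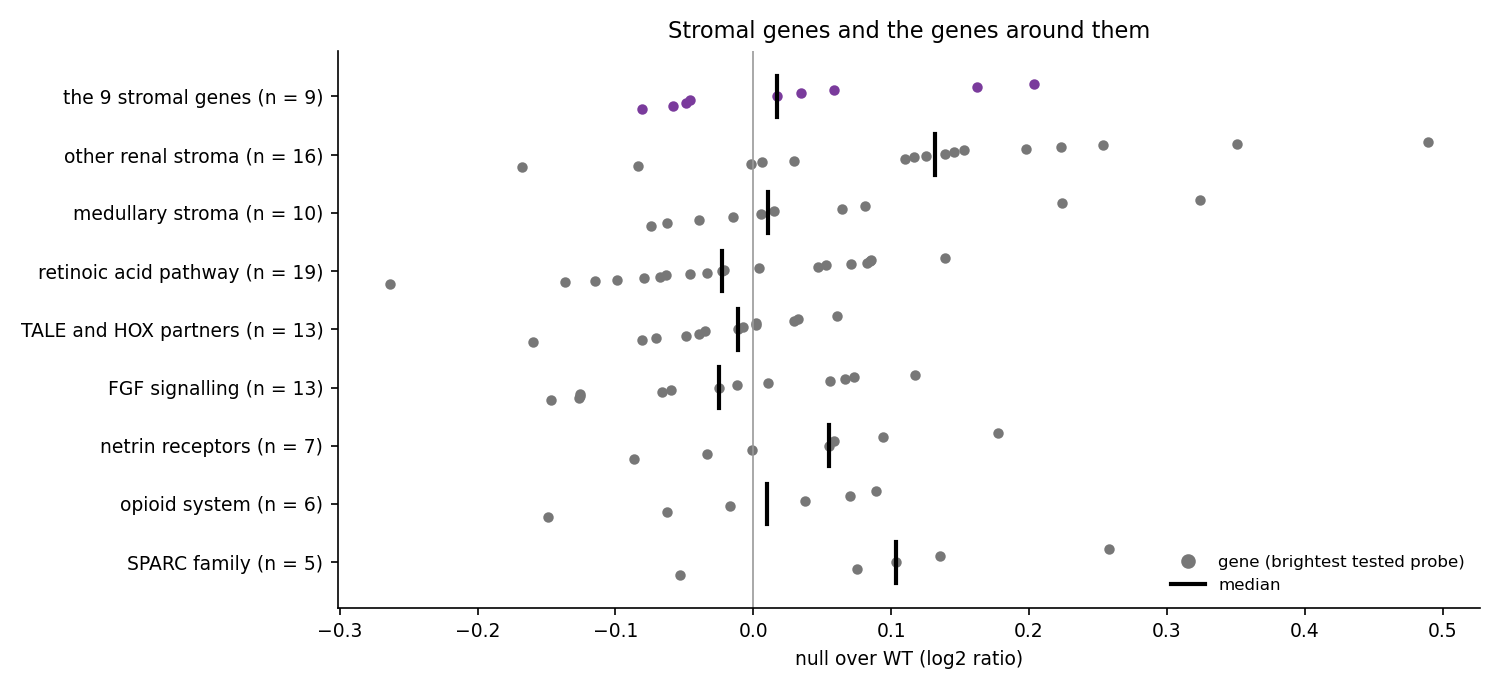
Null over WT (log2 ratio, horizontal axis) of the 9 stromal genes (purple) and of the tested genes in 8 related lists (grey), 1 point per gene at its brightest tested probe. Black bars are medians, with 0.13 for other renal stroma and -0.02 for the retinoic acid pathway, and no point passed the threshold.

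Markers of other cells were also set against these values, and none of them passed the threshold. Among 7 smooth muscle and pericyte genes, all 7 were higher in null, with slide medians of 0.15, 0.13 and 0.49. Their summed level ran from 13.70 to 14.42 in null kidneys, against 13.56 to 14.24 in WT kidneys. Of 7 tested skeletal muscle and cartilage genes out of 8, 6 were higher in null, with slide medians of 0.14, 0.41 and 2.16. Their summed level ran from 11.37 to 12.47 in null kidneys, against 11.10 to 11.80 in WT kidneys, and Myod1 was not tested. The skeletal muscle genes carried the median on slide 3: Myh3, Tnnc2, Acta1 and Myh8 stood between 2.16 and 2.92 on slide 3, while the cartilage genes Col2a1 and Acan stood at -0.55 and -0.04 there. Other lists were higher in null throughout: 7 of 7 endothelial genes (slide medians 0.07, 0.04 and 0.14), 7 of 7 leukocyte genes (0.02, 0.08 and 0.23), 5 of 5 tested podocyte genes (0.02, 0.10 and 0.28) and 3 of 3 tested liver genes (-0.03, 0.05 and 0.28). The smallest limma adjusted p of any marker was that of Flt1, an endothelial VEGF receptor gene (0.29 ± 0.04, adjusted p = 0.0778). The brighter Penk probe was also highest on slide 3 (0.37), while the other Penk probe was lowest there (0.10) and Fgf7 stood at 0.20, 0.07 and 0.22. The part of these cells in the Penk and Fgf7 values was not tested. On slide 1, where the skeletal, leukocyte, podocyte and liver medians were smallest, Penk stood at 0.17 and 0.23 and Fgf7 at 0.20. On slide 2, where the smooth muscle and endothelial medians were smallest, Penk stood at 0.06 and 0.26 and Fgf7 at 0.07.

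For chromaffin cells, the other known source of Penk near the kidney, the genes Th, Dbh and Hand2 were well above background on no channel. The 4 tested genes of that list of 8 had slide medians of 0.11, 0.00 and -0.08. Among them, Chga, which encodes chromogranin A, stood at -0.01, 0.70 and -0.07 on the 3 slides. The other tested genes, Chgb, Pnmt and Phox2a, stood at -0.03, -0.14 and 0.03 on slide 2. On that slide the Penk probe A_52_P286166 was highest (0.26) and the Penk probe A_51_P102987 was lowest (0.06). The part of chromaffin cells in the Penk values was not tested. The summed level of the 4 chromaffin genes ran from 8.85 to 9.63 in null kidneys, against 9.01 to 9.17 in WT kidneys. Nephron progenitor genes had slide medians of -0.02, -0.04 and -0.21, with 7 of 8 lower in null, and their summed level ran from 14.81 to 15.07 in null kidneys, against 14.95 to 15.26 in WT kidneys.

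**Figure D4:**
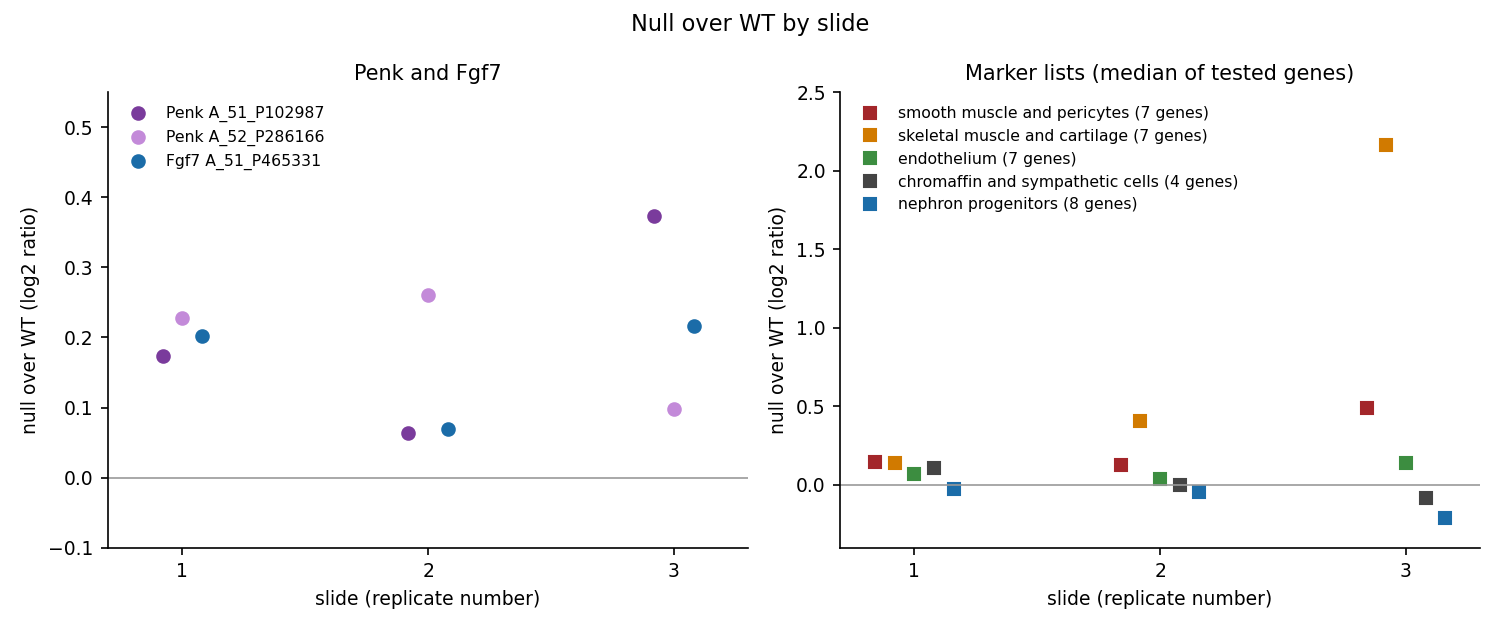
Null over WT (log2 ratio, vertical axis) on each of the 3 slides, for both Penk probes and Fgf7 (left) and as medians of marker lists of other cells (right). Each point is the mean of both dye orientations of 1 replicate number. The median of the skeletal muscle and cartilage list is 2.16 on slide 3, and all 9 points of Penk and Fgf7 lie above 0.

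The genes whose null over WT ratio was most like that of a stromal gene across the 12 arrays, after each dye orientation's mean was removed, were mostly genes outside the stromal lists. For Foxd1 they were Txndc15 and Fxyd4, both with a Pearson correlation of 0.931. For Penk they were Acot10 (0.970) and Ptpre (0.969), and for Fgf7 Fam241b (0.960) and Pigf (0.884). For Rarb they were B4galt6 (0.947) and Zzef1 (0.941), and for Aldh1a2 Sart3 (0.921) and Sgta (0.910). Meis1 was most like Mybpc3 (0.972), Meis2 like Camk4 (0.936) and Smco4 (0.921), Smoc2 like Ninj1 (0.951) and Ucp2 (0.949), and Ntn1 like Gpr19 (0.980) and Lrrc29 (0.969). Each stromal gene was read here by its brightest tested probe alone, and these correlations were picked as the highest over all tested genes. The 2 probes of a gene correlated over replicates at -0.45 for Foxd1, -0.07 for Penk and 0.13 for Ntn1. They correlated at 0.29 for Smoc2 and 0.87 for Meis2, all with the orientation means left in. The first array of WT/null replicate 3 stood at -0.57 for both Meis1 and Ntn1, and its part in their correlations was not tested. The 12 arrays are 6 replicates on 3 slides and share slide, array quality and labelling, so the correlations describe the arrays and carry no p.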

How the data were processed

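The arrays measured transcript levels by 2-colour hybridisation of null against WT kidney RNA. Median spot and background intensity per dye was deposited without further normalization, per the file headers. The files also hold a log10 ratio of Cy5 over Cy3 by the scanner software, which per the file headers was Agilent Feature Extraction 10.5.1.1, whereas the submitters' processing notes name version 6.1. The deposited series table held log10 ratios, all running as null over WT, since its columns, as the authors gave them, correlated with the scanner's ratios turned that way at 0.998 to 0.999 with slopes of 1.00. Its column medians lay between -0.0218 and 0.00645, and why some entries are blank is unknown. Columns of no known sample numbered 0.

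Intensities were corrected with normexp (offset 50) and normalized by loess within arrays, with control and outlier spots (101 to 262 per array) at weight 0 and then dropped. Spots of a probe were averaged, then the 2 arrays of a replicate. A probe was tested if at least 6 of 12 arrays had it well above background in their null or WT channel. Log2 ratios of the deposited intensities were fitted with limma 3.58.1 in R 4.3.3, with a dye term beside genotype, and p-values were adjusted by Benjamini-Hochberg over all 22979 tested probes. For levels, the average intensity of both channels was made alike between arrays (Aquantile) after loess. Each channel was then rebuilt from that average and the ratio. The number of arrays limits the precision. Symbols came from accessions matched to RefSeq (GRCm38.p6), for 25097 of 41174 probes. The array header names mm9, so genes are placed by chromosome only.

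The replicate numbers share a slide, and replicates of one number deviated together once each orientation's mean was removed (r = 0.587, 0.517 and 0.413). They were therefore treated as pairs in a second fit. Whether both orientations of a number used the same RNA is not given in the labels. In that case only 3 samples per genotype are independent, and p-values without the pairing come out too small. Nothing says that the replicates came from separate litters, so their spread may be partly technical.

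The members, lists and tests were chosen with earlier results of these data known. Named were every member with all its probes, Bdkrb2, the 3 genes with the smallest p in each pathway list, marker genes at background, and the 2 genes most like each member, except for items that are not reported here. Tcf21 and Fgfr2 were added after their values were seen.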

Additional observations from a re-analysis of the deposited data

Results flagged for a closer look

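The Meis2 probe A_52_P277641 differed between dye orientations. Its dye term was -0.213 on the log2 scale (limma adjusted p = 0.0204), with null/WT replicates at -0.02, -0.21 and -0.20 and WT/null replicates at 0.34, 0.21 and 0.29. The genotype term is the mean of both orientations, and the other Meis2 probe gave nearly the same value for it (0.06 against 0.07).

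Fgf7 in null/WT replicate 2 stood at -0.0720, away from the other 5 replicates, of which the nearest was at 0.144. That gap was 0.652 of the range of the 6 replicates, beyond Dixon's criterion, which chance exceeds in about 1 group in 20. All 14 tested probes were screened with this criterion, which takes the 6 values as independent although replicates of one number share a slide. Without null/WT replicate 2 the Fgf7 value was 0.21. The cause of either difference was not tested.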

How the results depend on the processing

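None of the 14 probes passed under any of the 21 alternatives tried, and of 292 values recomputed for single probes 266 kept their sign. Both Penk probes and Fgf7 kept theirs throughout, with ranges of 0.12 to 0.41, 0.15 to 0.39 and 0.13 to 0.59. Rarb (0.01 to 0.24) and the Meis2 probes A_51_P422429 (0.02 to 0.27) and A_52_P277641 (0.02 to 0.27) kept theirs as well. The upper ends of both Penk ranges came from median centring, which also raised the median of all tested probes to 0.14. In the other alternatives the highest Penk values were 0.27 (A_51_P102987) and 0.24 (A_52_P286166). Under a filter that asked for all 12 arrays above background, Fgf7 and Ntn1 A_51_P147123 could not be fitted. The number of probes passing over the whole array was 9. With the replicate block, which pairs the samples by number, it was 4, and the paired fit changed no call among the 14 probes. Leaving out 1 replicate at a time gave 5 to 12, with the 5 coming from null/WT replicate 2. The count was 3 with slide 2 left out, 62 with slide 3 left out, and 15 once the outlying array of WT/null replicate 3 was dropped.

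Median centring in place of loess moved the median of all tested probes to 0.14. The move was not the same for all probes: Aldh1a2 went from -0.0803 to 0.135 and Ntn1 A_51_P147123 from -0.0176 to 0.0460. Median centring gave 7 of the 26 sign changes. Foxd1 A_52_P128134 stood at 0.0684, Aldh1a2 at 0.135, Meis1 at 0.0591, Smoc2 at 0.161 (A_51_P213045) and 0.130 (A_52_P646762), and Ntn1 at 0.0460 (A_51_P147123) and 0.0448 (A_52_P401473), and all but Smoc2 A_51_P213045 lay below the median of all tested probes. On the duplicate arrays alone Meis1 stood at 0.000672 and Ntn1 A_52_P401473 at 0.0406. On the first arrays alone Smoc2 A_51_P213045 stood at 0.00971 and Ntn1 A_51_P147123 at 0.0310. Ntn1 A_52_P401473 stood at 0.00662 when that outlying array was dropped. The mean of both Foxd1 probes was -0.0206.

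Leaving out 1 replicate at a time also turned signs near 0. Foxd1 A_52_P128134 ranged from -0.104 to 0.0199, Meis1 from -0.110 to 0.0138, Smoc2 A_51_P213045 from -0.0560 to 0.0322, Ntn1 A_51_P147123 from -0.0537 to 0.0173 and Ntn1 A_52_P401473 from -0.121 to 0.0424. With slide 1 left out, Smoc2 stood at 0.0604 (A_51_P213045) and 0.0259 (A_52_P646762) and Ntn1 A_51_P147123 at 0.0174. With slide 3 left out, Foxd1 A_51_P237783 stood at -0.00673, Meis1 at 0.0198 and Ntn1 A_52_P401473 at 0.0496. The cause of these turns of sign was not tested. Signal limits the dim probes of Fgf7, Ntn1, Meis1 and Foxd1 A_52_P128134, which were not well above background on every channel.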

Other observations

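The spaced retinoic acid repeat seen before Rarb lies in the promoter windows of 31 named genes, of which 5 were tested. None passed the limma threshold, and none had an unadjusted p under 0.05. Rarb and Hbb-y, an embryonic globin gene, stood at 0.03 ± 0.04 and 0.07 ± 0.07 on the log2 scale, and Ppbp, Cyp26a1 and Tnfsf13b at -0.09 ± 0.09, -0.02 ± 0.06 and -0.01 ± 0.04. Cyp26a1 encodes the retinoic acid hydroxylase whose induction by retinoic acid is well known.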
